A study of Schmidtea mediterranea with 5 samples.

Results

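The contigs described here are transcripts of the planarian Schmidtea mediterranea that, apart from dd_Smed_v6_702_0, the study's annotation pairs with extracellular matrix genes. They were chosen by name and not by level: contig dd_Smed_v6_702_0, and contigs that the annotation table of the bmp4 RNAi experiment pairs with a collagen or with perlecan. The rule gave 5 of the 28040 contigs in the matrices, and contigs are shortened below, so that dd_702 stands for dd_Smed_v6_702_0. In the order of their names, the contigs taken from the annotation table, here and for the lists below, run only from dd_1006 to dd_10785. Matrix contigs with names outside this run may have been left out. Contig dd_1070 (dd_Smed_v6_1070_0) was paired with the human collagen COL2A1 (mouse Col5a2) and carries a fibrillar collagen C-terminal domain beside collagen repeats. Contig dd_10785 (dd_Smed_v6_10785_0) was paired with COL21A1 (mouse Col6a5) and carries collagen repeats. Contigs dd_1054 (dd_Smed_v6_1054_0) and dd_104545 were both paired with HSPG2, which encodes perlecan. The match of dd_1054 rests on immunoglobulin and LDL receptor class A domains, and that of dd_104545 on an LDL receptor class A domain. Contig dd_702 has no gene name in the tables used here and is given by its contig alone. The names are not secure, because the annotation table of the equinox RNAi experiment pairs the same contigs with other genes (NUDT14 for dd_1070, ATRX for dd_10785, and no gene for the other pair). Contig dd_104545 had no UMI in any cell, so values follow for 4 contigs.

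Fibrillar collagens are triple-helical proteins that assemble into the fibres that give connective tissue its tensile strength. Perlecan is a large heparan sulfate proteoglycan that links the components of basement membranes. In planarians, muscle is known as the main source of extracellular matrix transcripts, and muscle cells also carry the positional information that guides regeneration. Contig dd_2337, a marker of planarian muscle, serves below as the yardstick for muscle.

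The cells came from post-pharyngeal fragments of the clonal asexual strain CIW4, with many large animals pooled for each condition. They were sorted as X-insensitive cells, a gate on DNA content that is meant to leave out dividing cells, and were sequenced by droplet-based scRNA-seq. There was 1 library at 0 hpa (hours post amputation), 1 from anterior-facing wounds at 6 hpa and, at 16 hpa, 2 from anterior-facing wounds and 1 from posterior-facing wounds. Of the 2 anterior-facing libraries at 16 hpa, replicate 2 came from animals fed control unc-22 dsRNA 4 times, and no RNAi was used for the other libraries. The sample labels give 18 h for the wounds that the methods place at 16 hpa. The labels give a gate on calcein for the 6 hpa cells and on low propidium iodide for the others (the methods name propidium iodide for 6 hpa too), so that what belongs to 6 hpa and what to the sort cannot be told apart.

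The 5 libraries held between 21746895 and 37981205 UMIs, and 23632 barcodes were taken as cells, with 3560 to 6827 in a library. The median was 1738 UMIs per cell at 6 hpa and between 3671 and 4414 in the other libraries. The 6 hpa library also had the most barcodes with at least 100 UMIs (73160, against 8618 to 11861). Cell barcodes were shared 53 times between pairs of libraries, where 32.4 would be shared by chance. Cells were clustered without the matrix contigs, and all but 6 of 32 clusters were named from marker contigs. Muscle-like clusters 12, 16 and 20 held 2166 cells (9.17%), of which 95.9% had a dd_2337 UMI, compared with 1.66% of all other cells. Contig dd_2337 was itself among the markers that named these clusters, so its levels and shares there are not independent of the names. It was also not left out of the clustering. Cluster 12 was led by muscle markers such as dd_2337, dd_323 and dd_508, but 5 of 7 epidermal-lineage markers were also raised in it. A further 2278 cells carried neoblast markers in spite of the gate. Levels are given as CPM, the UMIs of a contig scaled to a total of 1000000 UMIs over all cells of a class in a library, and n counts libraries.

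Contig dd_702 and the collagen-like dd_1070 were found almost wholly in muscle-like cells, the collagen-like dd_10785 was spread over neuron-like and muscle-like cells, and the perlecan-like dd_1054 was nearly absent from muscle-like cells. Contig dd_702 averaged 1129 ± 824 CPM in muscle-like cells and 4.02 ± 1.06 CPM in all other cells (SD, n = 5 libraries each). Its levels in muscle-like cells were 2502 CPM at 0 hpa, 1049 at 6 hpa, 833 in replicate 1 and 287 in replicate 2 from anterior-facing wounds at 16 hpa, and 976 from the posterior-facing wound. Contig dd_1070 averaged 959 ± 704 CPM in muscle-like cells and 1.92 ± 0.71 CPM in all other cells. Its levels in muscle-like cells were 2163, 743, 738, 305 and 847 CPM in the same order of libraries. Both contigs were higher in the muscle-like cells of every library than in the other cells of any library, as the plot of levels by class shows. How many of all contigs are separated in this way was not counted. For comparison, dd_2337 averaged 4258 ± 1622 CPM in muscle-like cells and 12.2 ± 6.52 CPM in the others.

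Contig dd_10785 was rarer, with 703 UMIs in all cells. It was at 38.01, 24.6, 24.8, 16.02 and 16.5 CPM in muscle-like cells, in the same order of libraries, and between 4.34 and 9.36 CPM in all other cells. The groups did not overlap, but this was not counted over all contigs, and the lowest muscle-like value rested on 31 UMIs. Contig dd_1054, with 12135 UMIs the most abundant of the 4, had no UMI in the muscle-like cells at 0 hpa, where a count of 0 still allows 3 UMIs. In the other libraries it was between 2.45 and 14.99 CPM in muscle-like cells. All other cells averaged 154 ± 93.1 CPM of it.

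**Figure D1:**
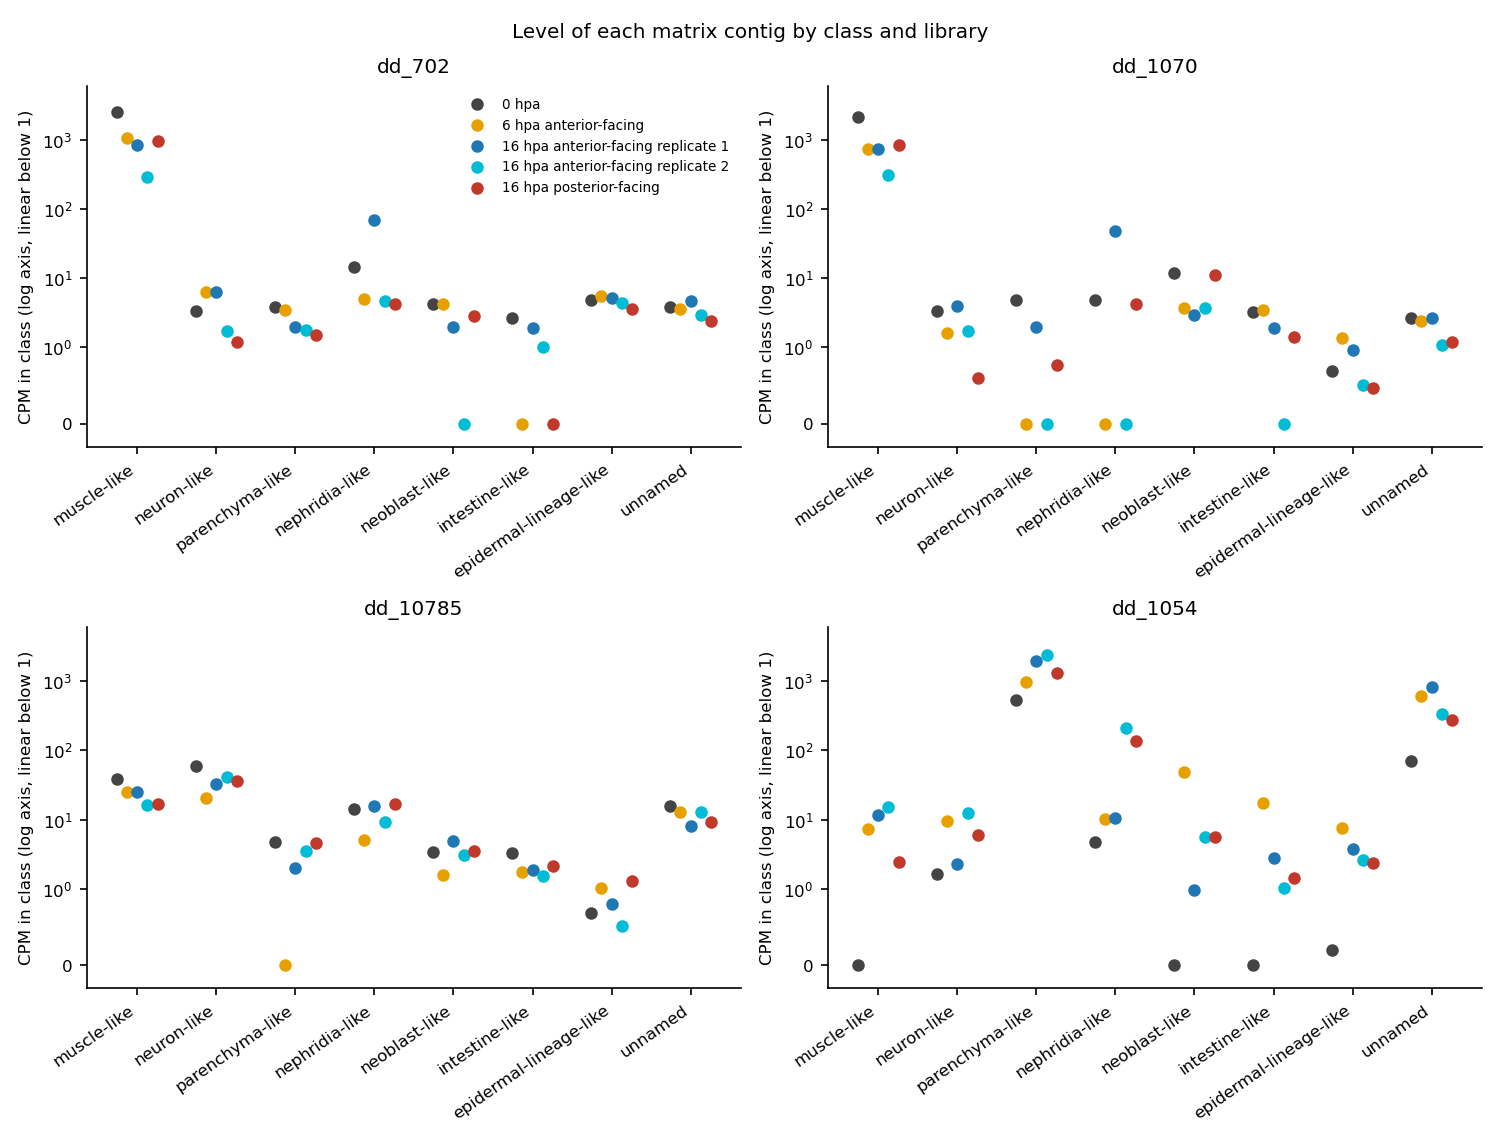
Level of dd_702, dd_1070, dd_10785 and dd_1054 in CPM (y, log axis that is linear below 1) in each class of cells (x). Each point is 1 library. The 5 muscle-like points of dd_702 lie between 287 and 2502, and those of dd_1070 between 305 and 2163, above every point of the other classes, while dd_10785 is highest in neuron-like and dd_1054 in parenchyma-like cells.

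These differences were tested on UMIs summed per library, with the library as a block, by the quasi-likelihood test of edgeR, and p-values were adjusted by Benjamini-Hochberg over 14441 contigs. Of these contigs, 17.0% were called higher and 29.1% lower in muscle-like cells. Among the members, 3 were called higher, and dd_1054 was called lower. The log2 fold change was 7.90 for dd_702 (SE 0.37, edgeR adjusted p = 8.3e-09) and 8.90 for dd_1070 (SE 0.25, edgeR adjusted p = 1.11e-10). For dd_10785 it was 1.82 (SE 0.21, edgeR adjusted p = 2.28e-05), and for dd_1054 it was -4.40 (SE 0.25, edgeR adjusted p = 4.6e-08). The yardstick dd_2337 had a log2 fold change of 8.55. The first 3 contigs were higher in muscle-like cells in 5 of 5 libraries and dd_1054 in 0 of 5. The libraries are of different times and wounds, so these p-values measure the spread of the difference across them and not across repeats of 1 condition.

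Further matrix contigs were also higher in muscle-like cells. Of 11 further contigs paired with matrix proteins or their processing enzymes, 8 were tested, 6 were higher in muscle-like cells and none was lower. The median of the 8 log2 fold change was 3.24, beside -0.11 over all contigs tested. Contig dd_1010, with a calcium-binding domain of the SPARC type, had a log2 fold change of 9.13. SPARC proteins bind collagen and calcium in the matrix, and the SPARCL1-like dd_1021 stood at 8.23. The FBN2-like dd_10142, paired with a fibrillin of the elastic microfibrils, was at 7.50. The COLGALT1-like dd_10276, paired with an enzyme that adds galactose to collagen, was at 4.73. The ADAMTS20-like dd_10259 was also called higher (1.76), as was the DDR2-like dd_10406 (0.75), paired with a collagen receptor. The GLCE-like dd_10357 and the PDIA6-like dd_1058 were not called.

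A list of 9 contigs held dd_2337 and contigs paired with contraction and calcium handling, and all were tested. Of these, 7 (dd_2337 among them) were higher in muscle-like cells and none was lower, with a median log2 fold change of 2.43. Of the named Z-disc proteins, the LDB3-like dd_10318 was at 8.95 and the ACTN2-like dd_10174 at 4.99. The yardstick dd_2337, which has no gene name here, was at 8.55. The CACNA1C-like dd_10156, paired with a subunit of the voltage-gated calcium channel, was at 3.49. Of the 9, 6 (dd_2337 among them) had also served to name the muscle-like clusters, so the count is not independent of those names. The fold changes of dd_702 and dd_1070 thus lay in the range of the highest of both lists, and that of dd_10785 lay below both medians.

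Whether each contig is limited to cells with dd_2337 was examined first by where its UMIs lie. Cells with at least 1 dd_2337 UMI were 10.3% of all cells and held 9.29% of all UMIs. They held 94.1% of the UMIs of dd_702 and 96.4% of those of dd_1070. Of dd_10785 they held 23.9%, and of dd_1054 only 1.28%. By class, muscle-like cells held 95.8% of dd_702, 97.7% of dd_1070, 22.6% of dd_10785 and 0.478% of dd_1054, compared with 8.04% of all UMIs. The plot of the classes that hold each contig's UMIs shows dd_702 and dd_1070 with the profile of dd_2337, of which muscle-like cells held 97.3%. That class was named in part by dd_2337.

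**Figure D2:**
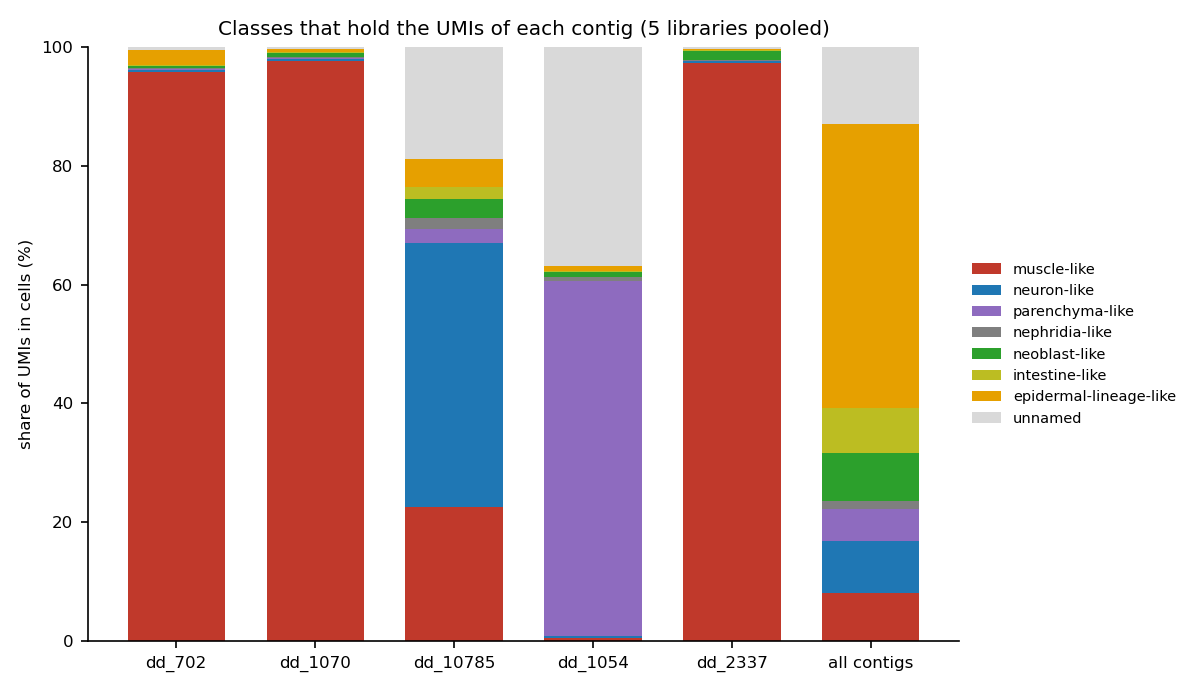
Share of each contig's UMIs (y, percent, 5 libraries pooled) that lay in each class of cells (colours), with all contigs together in the last bar. Muscle-like cells held 95.8% of dd_702, 97.7% of dd_1070 and 97.3% of dd_2337, but 22.6% of dd_10785 and 0.478% of dd_1054, beside 8.04% of all UMIs.

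Counted by cells, 1034 of the 1340 cells with a dd_702 UMI also had a dd_2337 UMI (77.2%, exact 95% binomial interval 74.8 to 79.4%). For dd_1070 it was 1132 of 1272 cells (89.0%, 87.1 to 90.7%). For dd_10785 it was 139 of 602 cells (23.1%, 19.8 to 26.7%), and for dd_1054 it was 35 of 1707 cells (2.05%, 1.43 to 2.84%). Intervals here and below cover counting error only. Among cells with at least 3 UMIs of the contig, the share with dd_2337 was 626 of 647 for dd_702 (96.8%) and 574 of 591 for dd_1070 (97.1%). It was 5 of 16 for dd_10785 and 1.495% for dd_1054. Cells with 3 or more UMIs that lacked dd_2337 and lay outside the muscle-like clusters numbered 4 for dd_702 and 1 for dd_1070. The 88 muscle-like cells without a dd_2337 UMI still held 669 CPM of dd_702 and 552 CPM of dd_1070, with the libraries pooled. Contigs dd_702 and dd_1070 were therefore limited to muscle-like cells more closely than to cells with a detected dd_2337 UMI.

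The split by dd_2337 was also tested, with dd_2337 left out of the contigs, over 14571 contigs, of which 16.6% were called higher and 26.5% lower in cells with dd_2337. In cells with dd_2337, dd_702 averaged 964 ± 747 CPM, against 6.07 ± 2.81 CPM in cells without it (SD, n = 5 libraries each). Contig dd_1070 averaged 824 ± 647 CPM in cells with dd_2337 and 3.33 ± 1.86 CPM in cells without it. The log2 fold changes were 7.14 for dd_702 (SE 0.38, edgeR adjusted p = 1.81e-07) and 7.89 for dd_1070 (SE 0.36, edgeR adjusted p = 7.1e-08). Where each cell was first thinned to 500 UMIs and the cells were split by the dd_2337 UMIs that remained, these were 4.63 and 4.78, both still called. Contig dd_1054 was lower by this test (log2 fold change -3.12, SE 0.38, edgeR adjusted p = 8.16e-05). Contig dd_10785 was higher (1.70, SE 0.20, edgeR adjusted p = 6.25e-05), but its call was lost once every cell had been thinned to 500 UMIs (0.27, edgeR adjusted p = 0.767). The shares that follow are of cells split by dd_2337 before thinning, unlike in that fit. Thinning left dd_10785 in 0.780% of cells with dd_2337 and 0.533% of cells without it, and the median depths before thinning were 3207 and 3706 UMIs. Of the matrix list, 6 of 8 contigs were higher with dd_2337 and none lower, with a median of 3.05 beside -0.07 over all contigs. Of the contraction and calcium list without dd_2337, 6 of 8 were higher and none was lower, with a median of 1.98.

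The low levels outside muscle-like cells were set beside free RNA, the RNA of broken cells that enters every droplet. The composition of barcodes with at most 50 UMIs, at the depth of an empty droplet, gives the UMIs that free RNA would leave in the cells. In the 21109 other cells without dd_2337, dd_702 had 299 UMIs (exact 95% Poisson interval 266 to 335), where free RNA gives 52.1. Contig dd_1070 had 121 UMIs (100 to 145) there, where free RNA gives 44.7. For dd_10785 the count was 533 (489 to 580), where free RNA gives 5.47, and for dd_1054 it was 11979, where free RNA gives 110. In the 6 hpa library, which had the most UMIs outside cells, dd_1070 was at the level of free RNA (14 UMIs, where free RNA gives 17.2) and dd_702 was above it (32, where free RNA gives 17.2). By share of cells, 48.8% of muscle-like cells had a dd_702 UMI and 0.556% of intestine-like cells, which should lack it. For dd_1070 these shares were 52.9% and 0.694%. Thinned to 500 UMIs, 26.0% of muscle-like cells had dd_702 and 24.8% had dd_1070.

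The remaining UMIs were not spread evenly. In epidermal-lineage-like cells, dd_702 had 188 UMIs, where free RNA gives 21.9, and dd_1070 had 28, where free RNA gives 18.7. Of the 188, 56 UMIs lay in cluster 22, an epidermal-lineage-like cluster of 405 cells, where free RNA gives 0.996. The levels of dd_702 in cluster 22 were 39.9 CPM at 0 hpa, 4.38 at 6 hpa, 40.5 and 19.4 in the 16 hpa anterior-facing replicates and 35.5 at the posterior-facing wound. Cluster 22 had only 2 UMIs of dd_1070, and its cells were deep, with a median of 5473 UMIs. This cluster was picked out after its values were seen. In neoblast-like cells it was dd_1070 that stood out, with 46 UMIs where free RNA gives 6.99, against 19 UMIs of dd_702 where free RNA gives 7.497. Contig dd_2337 had 510 UMIs in the same cells, where free RNA gives 22.7. With muscle-like cells left out of the comparison, neoblast-like cells had more dd_1070 than the rest (log2 fold change 2.24, SE 0.47, edgeR adjusted p = 0.00129) and more dd_2337 (3.54), while dd_702 was not called (-0.67, edgeR adjusted p = 0.241). In this comparison 27.4% of contigs were called higher. In nephridia-like cells, 13 of the 19 UMIs of dd_702 came from replicate 1 of the 16 hpa anterior-facing wounds, in 3 cells, and 9 of the 11 UMIs of dd_1070 from 1 cell of the same library. Doublets could not be removed, and their part in these values was not tested.

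Within muscle the 2 contigs were graded over the clusters in the same order. Contig dd_702 averaged 3272 ± 1366 CPM in cluster 20, 575 ± 355 CPM in cluster 16 and 73.2 ± 87.6 CPM in cluster 12 (SD, n = 5 libraries each). Contig dd_1070 averaged 2717 ± 1128 CPM in cluster 20, 478.9 ± 289.1 CPM in cluster 16 and 91.1 ± 61.3 CPM in cluster 12. The order 20, 16, 12 held for both contigs in all 5 libraries. Contig dd_2337 was not graded in this way, with 4181 CPM in cluster 20, 4999 CPM in cluster 16 and 3717 CPM in cluster 12. It helped to name these clusters, so its high level in each was not independent of the names. Contig dd_10785 was at 47.6 CPM in cluster 20 and 23.8 CPM in cluster 16, but its intervals overlapped in several libraries, as the plot of the 3 muscle-like clusters shows. The clusters were built without these contigs, but other contigs that follow them could have set the clusters, so the gradient is a description.

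**Figure D3:**
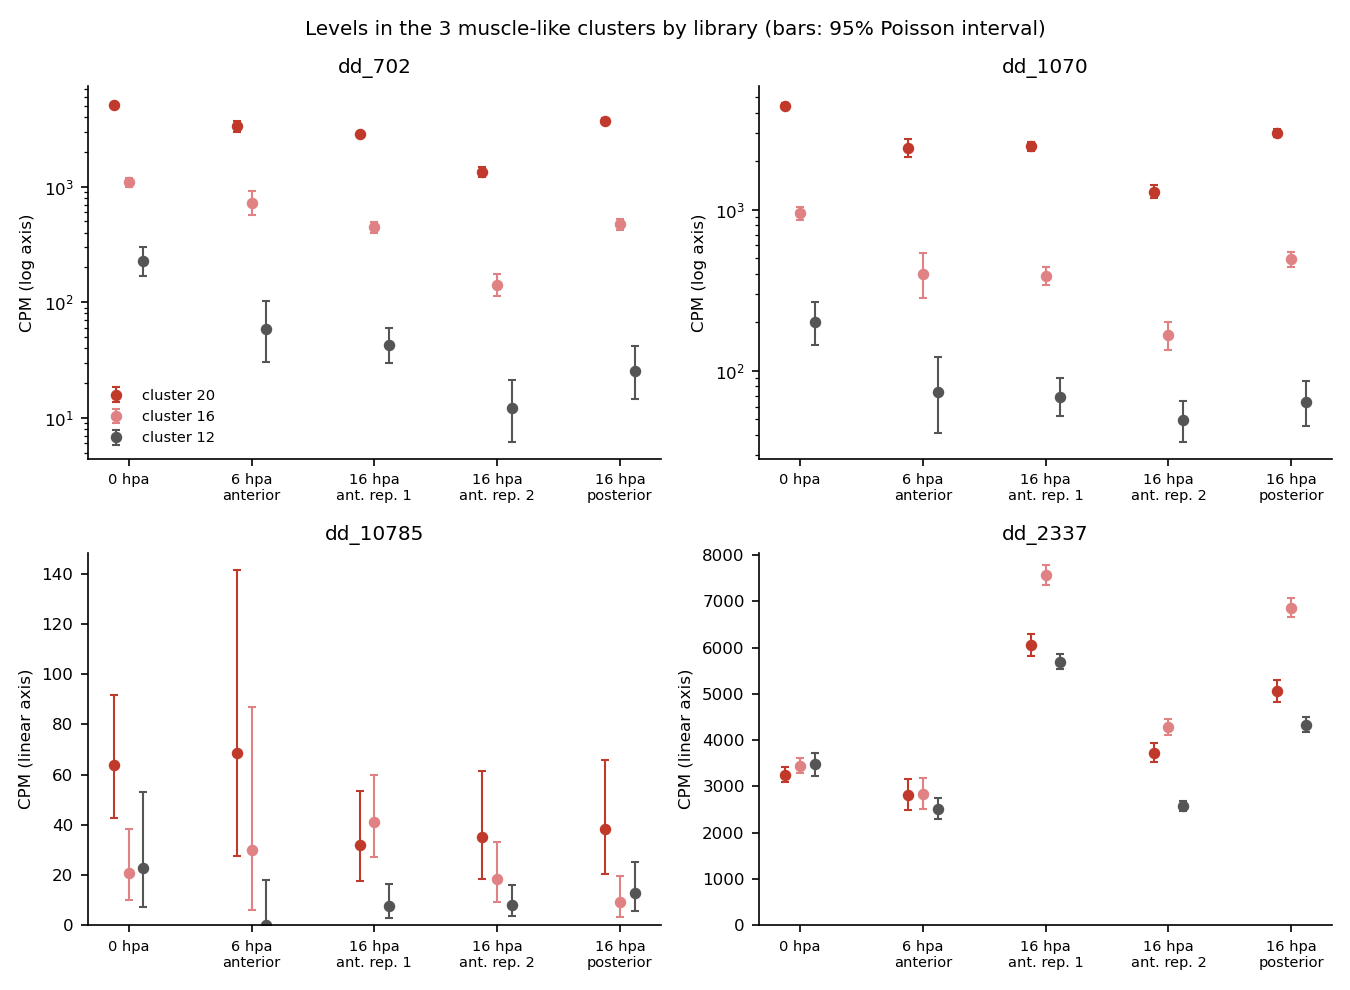
Level in CPM (y) of dd_702 and dd_1070 (log axes) and of dd_10785 and dd_2337 (linear axes) in muscle-like clusters 20, 16 and 12 (colours) for each library (x). Points are summed cells of 1 library and bars exact 95% Poisson intervals. For dd_702 and dd_1070 cluster 20 lies above cluster 16 and cluster 16 above cluster 12 in all 5 libraries, while dd_2337 shows no such order.

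The 2 contigs were also found in the same cells. In muscle-like cells with a dd_702 UMI, 83.2% had dd_1070, against 23.9% of those without dd_702, and the 2 groups had median depths of 3083 and 3191 UMIs. After thinning to 500 UMIs, the shares were 60.7% and 12.2%. In cluster 20, 96.5% of cells with dd_702 and 70.4% of the only 27 cells without it had dd_1070 before thinning, and 73.6% and 40.1% after it. With the libraries pooled, there were 1.14 UMIs of dd_702 for every UMI of dd_1070 in muscle-like cells (interval 1.10 to 1.18). By library this ratio ran from 0.941 in 16 hpa anterior-facing replicate 2 (0.836 to 1.06) to 1.41 at 6 hpa (1.21 to 1.64). The pooled ratio was 1.18 in cluster 20 and 1.09 in cluster 16. Single libraries ran from 1.04 to 1.38 in cluster 20 and from 0.848 to 1.83 in cluster 16. The order of both contigs in cluster 16 thus differed between libraries. The pooled ratio was 0.611 in cluster 12 (interval 0.485 to 0.767), where dd_702 was thus the less abundant. At 0 hpa, however, the ratio in cluster 12 was 1.14, within a wide interval of 0.743 to 1.74.

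By time, dd_702 and dd_1070 were highest in the muscle-like cells of the 0 hpa fragments and lower in all 4 libraries of wounded fragments. With 1 library for most conditions there is no test across replicates, and the values compare libraries. Relative to 0 hpa, the level of dd_702 in muscle-like cells was 0.419-fold at 6 hpa (exact 95% interval 0.378 to 0.464). At the 16 hpa anterior-facing wounds it was 0.333-fold in replicate 1 (0.313 to 0.354) and 0.115-fold in replicate 2 (0.104 to 0.126). At the 16 hpa posterior-facing wound it was 0.390-fold (0.367 to 0.415). Contig dd_1070 followed, at 0.344-fold at 6 hpa, 0.341-fold and 0.141-fold in the 16 hpa anterior-facing replicates and 0.392-fold at the posterior-facing wound. Contig dd_10785 was at 0.648-fold, 0.653-fold, 0.421-fold and 0.435-fold of 0 hpa in the same order, on few UMIs, and the intervals of the first 2 values included no change. Contig dd_2337 did not show this, with 0.790-fold at 6 hpa, 1.91-fold and 0.979-fold in the 16 hpa anterior-facing replicates and 1.64-fold at the posterior-facing wound.

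A fold of 1.5 was used to read these values against all contigs with a mean of at least 10 CPM in muscle-like cells. At 6 hpa the 3 members that reached this level were past it, all lower, but so were 43.4% of such contigs, and the cells of this library were shallow. At 16 hpa the same 3 were lower by at least 1.5-fold in each library. Of all contigs, 17.6% were lower by that much in replicate 1 of the anterior-facing wounds, 18.0% in replicate 2 and 15.7% at the posterior-facing wound. Between wound sides, replicate 1 of the 16 hpa anterior-facing wounds had 0.853-fold the dd_702 (0.795 to 0.915) and 0.871-fold the dd_1070 of the posterior-facing wound, neither past the limit. Only dd_10785 was past it between these libraries, at 1.501-fold on 47 and 27 UMIs (0.916 to 2.51), where 5.65% of contigs were at least 1.5-fold higher and 6.26% lower. Replicate 2 had 0.294-fold and 0.360-fold, where 8.04% of contigs were lower by at least 1.5-fold. The 2 anterior-facing libraries thus differed more from each other than replicate 1 did from the posterior-facing wound, and no difference between sides stood out from the spread of replicates. Replicate 2 was the library of animals fed unc-22 dsRNA, and feeding and replicate cannot be told apart.

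The makeup of the muscle-like class moved with these values. Cluster 20, which had the highest levels, was 41.4% of muscle-like cells at 0 hpa and between 18.3% and 23.7% in the other libraries. Within cluster 20, dd_702 was at 5101 CPM at 0 hpa, 3344 at 6 hpa, 2839 and 1345 in the 16 hpa anterior-facing replicates and 3730 at the posterior-facing wound. Relative to 0 hpa these were 0.656-fold (where 47.4% of contigs were lower by at least 1.5-fold), 0.556-fold, 0.264-fold and 0.731-fold. Contig dd_1070 in cluster 20 was at 0.550-fold, 0.561-fold, 0.294-fold and 0.681-fold. Both contigs were thus lower in wounded fragments within cluster 20 also, but by less than in the whole class. At the posterior-facing wound they were not past the 1.5-fold limit, which 17.7% of the contigs of cluster 20 passed downwards there. In replicates 1 and 2 of the 16 hpa anterior-facing wounds it was passed downwards by 22.6% and 21.5% of contigs of cluster 20.

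Contig dd_10785, which carries collagen repeats but no fibrillar domain match, had its highest mean level in neuron-like cells. These held 44.4% of its UMIs with 8.76% of all UMIs. Its level in neuron-like cells was 59.9 CPM at 0 hpa, 20.7 at 6 hpa, 32.7 and 40.9 in the 16 hpa anterior-facing replicates and 35.98 at the posterior-facing wound (mean 38.04 ± 14.3 SD, n = 5 libraries). Next came muscle-like cells at 24.0 ± 8.90 CPM, nephridia-like cells at 12.2 ± 4.90 CPM and unnamed cells at 11.8 ± 3.17 CPM. Epidermal-lineage-like cells were lowest, at 0.858 ± 0.296 CPM. The ranges of neuron-like and muscle-like cells overlapped across libraries. At 6 hpa the level was higher in muscle-like cells (24.6 CPM) than in neuron-like cells, and in the other libraries it was lower.

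Neuron-like cells had more dd_10785 than all other cells (log2 fold change 2.65, SE 0.22, edgeR adjusted p = 1.55e-05, higher in 5 of 5 libraries), where 28.9% of contigs were called higher. Set directly against muscle-like cells, they were higher by a log2 fold change of 0.57 (SE 0.20, edgeR adjusted p = 0.036), where 29.1% of contigs were called higher. This call was lost without the 0 hpa library (0.62, edgeR adjusted p = 0.0639), without replicate 2 of the 16 hpa anterior-facing wounds (0.40, edgeR adjusted p = 0.164), without the posterior-facing wound (0.45, edgeR adjusted p = 0.174) and without cluster 17 (0.29, edgeR adjusted p = 0.248), so the order of both classes was not settled. By cluster, dd_10785 was at 55.7 CPM in neuron-like cluster 8. It was at 74.6 CPM in cluster 17 (n = 4 libraries with enough cells of it), named neuron-like from 11 of 16 neuron markers, in which 14 of 15 contigs of ciliated cells were also raised, although these were not used to name clusters. Without cluster 17, neuron-like cells averaged 31.6 ± 12.2 CPM and were still above all other cells (log2 fold change 2.44, edgeR adjusted p = 3.08e-07). Muscle-like cluster 20 followed at 47.6 CPM, and the unnamed cluster 19, with 5 of 16 neuron markers, held 88 UMIs where free RNA gives 0.113. Over all muscle-like cells, 8.73% of those with dd_1070 also had dd_10785, against 3.23% of those without dd_1070. Within clusters the gap was smaller: 7.28% against 5.28% in cluster 16, 4.94% against 2.25% in cluster 12 and 11.2% against 7.69% in cluster 20. The last value rested on only 26 cells. In cluster 16 the order was reversed in 16 hpa anterior-facing replicate 2 (4.23% against 4.84%) and in the posterior-facing library (3.03% against 4.08%). The other libraries kept the order in cluster 16. In cluster 12 it was reversed at 0 hpa (3.57% against 6.12%), no cell had dd_10785 at 6 hpa, and the 16 hpa libraries kept it. In cluster 20 it was reversed in 16 hpa anterior-facing replicate 2 (5.94% against 11.8%, on 17 cells without dd_1070). At 6 hpa cluster 20 kept it, on 5 cells without dd_1070. After thinning, dd_10785 was left in only 18 muscle-like cells, at 2.05% with dd_1070 and 0.430% without it. How far the pooled gap reflects the clusters was not tested.

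The perlecan-like dd_1054 belonged to cells without muscle markers. Parenchyma-like cells averaged 1428 ± 737 CPM of it (SD, n = 5 libraries), unnamed cells 423 ± 293 CPM, and all other classes between 3.26 and 74.4 CPM. The value of the nephridia-like class rested on 45 UMIs in 2 cells and 33 UMIs in 1 cell of different libraries. Parenchyma-like cells had more dd_1054 than all other cells (log2 fold change 4.80, SE 0.33, edgeR adjusted p = 1.39e-08, higher in 5 of 5 libraries), where 21.6% of contigs were called higher. Together, 3 clusters held 95.1% of its UMIs with 7.24% of all UMIs: parenchyma-like cluster 15 with 801 cells and unnamed clusters 11 with 916 cells and 30 with 140 cells. The name of cluster 15 rests on 3 of 8 parenchyma markers, the least that a name needed, and dd_1054 itself was among the 10 contigs that led clusters 11 and 15. In cluster 15, a dd_1054 UMI was found in 81.0% of cells at 0 hpa, 72.3% at 6 hpa, 96.0% and 97.9% in the 16 hpa anterior-facing replicates and 95.8% at the posterior-facing wound.

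In these clusters dd_1054 had its lowest level at 0 hpa, where dd_702 and dd_1070 had their highest in muscle-like cells. Cluster 15 had 965 CPM at 0 hpa, 1348 at 6 hpa, 3362 and 2996 in the 16 hpa anterior-facing replicates and 2021 at the posterior-facing wound. Cluster 11 had 282, 931, 2084, 1520 and 977 CPM in the same order. Cluster 30 had 607 CPM at 0 hpa, 3351 and 2131 in the 16 hpa anterior-facing replicates and 1236 at the posterior-facing wound, and only 3 cells at 6 hpa, which were left out. Each of the 3 clusters was thus higher at both 16 hpa anterior-facing libraries than at the posterior-facing wound, and higher there than at 0 hpa, as the plot of dd_1054 by cluster shows.

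**Figure D4:**
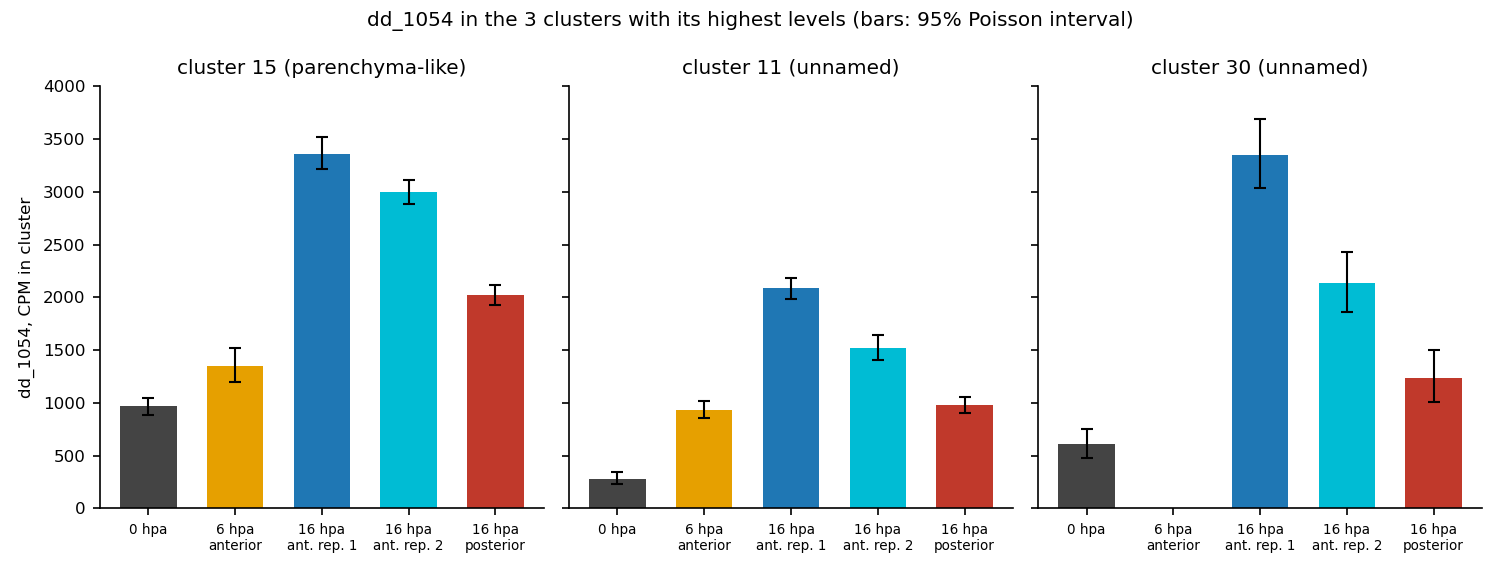
Level of dd_1054 in CPM (y) in clusters 15, 11 and 30 (panels) for each library (x). Bars are summed cells of 1 library and error bars exact 95% Poisson intervals, and 6 hpa is not drawn for cluster 30, which had 3 cells there. In each panel the 16 hpa anterior-facing libraries are highest, the posterior-facing wound lies below them and 0 hpa is lowest.

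Relative to 0 hpa, cluster 15 had 3.48-fold (interval 3.17 to 3.83) and 3.10-fold (2.83 to 3.41) the level of dd_1054 in replicates 1 and 2 of the 16 hpa anterior-facing wounds and 2.09-fold (1.90 to 2.31) at the posterior-facing wound. At least 1.5-fold higher were 20.4%, 27.1% and 21.5% of all contigs of this cluster in those libraries. In cluster 11 it was 7.38-fold and 5.38-fold in the anterior-facing replicates, where 17.0% and 20.6% of contigs passed the limit upwards, and 3.46-fold at the posterior-facing wound, where 18.2% did. At 6 hpa cluster 15 was at 1.40-fold, under the limit that 12.9% passed, and cluster 11 at 3.30-fold, where 13.9% of contigs passed it. In cluster 30 it was 5.52-fold and 3.51-fold in the anterior-facing replicates and 2.04-fold at the posterior-facing wound, where 27.9%, 27.0% and 30.5% of contigs of this small cluster passed the limit.

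Between the wound sides, dd_1054 in cluster 15 was 1.66-fold (1.56 to 1.78) and 1.48-fold (1.39 to 1.58) as high in replicates 1 and 2 of the anterior-facing wounds as at the posterior-facing wound. In cluster 11 it was 2.13-fold (1.94 to 2.35) and 1.56-fold (1.39 to 1.74), and in cluster 30 it was 2.71-fold (2.18 to 3.40) and 1.72-fold (1.36 to 2.20). At least 1.5-fold higher than at the posterior-facing wound were 13.5% and 11.2% of contigs in cluster 15, 8.86% and 13.3% in cluster 11 and 29.9% and 32.0% in cluster 30. Both replicates were above the posterior-facing wound in all 3 clusters, but there was 1 posterior-facing library, so the spread between posterior-facing samples is unknown. Over the whole parenchyma-like class the folds over 0 hpa were 1.85 at 6 hpa, 3.65 and 4.46 in the 16 hpa anterior-facing replicates and 2.46 at the posterior-facing wound, where 10.4%, 12.6%, 22.4% and 15.3% of contigs passed the limit upwards.

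The contigs whose levels ran closest to those of the members were looked for over the 40 sums of a class in a library, by Pearson correlation of log2(CPM + 1), among 12812 contigs with at least 200 UMIs. The sums share libraries and cells of 1 class, so the correlations are descriptions. Closest to dd_702 were dd_9217 (0.95), dd_803, dd_9565, dd_2928 and dd_701 (0.94). Closest to dd_1070 were dd_832 (0.96), dd_402, dd_375, dd_701 and dd_9217 (0.95), so dd_9217 and dd_701 were on both lists. Contigs dd_702 and dd_1070 correlated with each other at 0.92, and with dd_2337 at 0.81 and 0.86. Closest to dd_10785 were dd_8889 (0.93), dd_1721, dd_1656, dd_7323 and dd_6290 (0.89), and its correlation with dd_2337 was 0.47. Closest to dd_1054 were dd_1581 (0.95), dd_198, dd_22918, dd_67 and dd_3112_1 (0.91), of which dd_1581, dd_198 and dd_67 also led cluster 15, and its correlation with dd_2337 was -0.21. None of these contigs was in the lists of matrix or contraction genes. Apart from dd_2337, however, those lists hold only contigs from dd_1006 to dd_10785 in name order, and the most alike contigs lie outside that run. Their absence from the lists therefore says nothing about what they encode.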

How the data were processed

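The deposited values were raw UMI counts per contig and barcode, without normalization or a filter to cells. The authors mapped the reads with Cell Ranger (version 4 in the matrix headers) to Smed_v6 transcripts, aligned by BLAT to the Smes_g4 genome, and the processing notes also name CASAVA 1.9 and Seurat. The study's bulk RNA-seq was not used here.

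Cells were barcodes with 200 to 2500 genes and at least 10% of the UMIs at the 99th percentile of the 10000 deepest barcodes. Cells were clustered with scanpy 1.11.5 and leidenalg 0.10.2 (2000 variable contigs, without the members and the other matrix contigs, 11 components, 20 neighbours, resolution 1). Of 76 marker contigs, 1 was absent. The name of a cluster came from the class whose markers were raised in the largest proportion (2-fold or more over the median of clusters), with a minimum of 3 raised. Markers of ciliated cells were counted but named no cluster. Marker contigs without a gene name in the tables were recalled from knowledge of planarian cell types. Under this rule as first written, cluster 12 was epidermal-lineage-like, and the rule was amended to use the 10 leading contigs after the clusters had been seen. Scrublet marked at most 0.412% of the cells of a library, a share too low to rely on, so no doublets were removed. Why so few were marked was not tested.

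Sums of UMIs by library and class were tested with edgeR 4.0.16 (TMM, low-count filter, quasi-likelihood, library as a block, adjusted p under 0.05 by Benjamini-Hochberg). The SE was taken from the fold change and the F statistic. On simulated data for muscle-like against all other cells, all 107 contigs changed by a log2 fold change of 1 and all 93 changed by 2 were recovered, with 6 false calls among 13876 contigs. The simulation gave all contigs the same fixed dispersion and all libraries the same mean levels, and changed only well-counted contigs. Recovery at the spread of the real libraries, or for contigs as rare as dd_10785, was not simulated. Depth was held fixed by thinning each cell to 500 UMIs. Alternatives were DESeq2 1.42.0, no low-count filter, other rules for cells, genes, mitochondrial share and clustering, and each library left out. Those without cluster 17, those for the amended naming and for dd_10785 and dd_1054 in neuron-like and parenchyma-like cells, and the contrast of neuron-like with muscle-like cells, were chosen after seeing the data.

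The members and lists were chosen with earlier results of these data known. Named were all members and, of each list, at most 4 contigs called higher and 2 called lower in muscle-like cells by fold, and the 5 contigs most alike to each member. The further list members, clusters 8, 15, 17, 19, 11, 30, 22, 24 and 26 and the single libraries named were chosen after their values were seen.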

Additional observations from a re-analysis of the deposited data

How the results depend on the processing

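The muscle-like comparison of the 4 contigs kept its direction and its side of the threshold under all alternatives run. Leaving out each library in turn gave log2 fold changes of 7.49 to 8.29 for dd_702, 8.53 to 9.18 for dd_1070, 1.71 to 1.94 for dd_10785 and -4.94 to -4.16 for dd_1054. In the split by dd_2337, thinning to 500 UMIs left 1108 contigs higher and 2061 lower, from 2423 and 3865. The log2 fold changes were then 4.63 for dd_702, 4.78 for dd_1070 and 0.27 for dd_10785, in a fit that splits cells by the dd_2337 UMIs left after thinning. The contrast of dd_10785 between neuron-like and muscle-like cells was 0.56 with DESeq2 (adjusted p = 0.172), 0.29 without cluster 17, and 0.40 to 0.70 with each library left out. Without an upper limit on genes, muscle-like cells held 91.7% of dd_702 and 93.3% of dd_1070. With cells under 10% mitochondrial UMIs they held 96.4% of dd_1070 and 15.99% of dd_10785, and under the naming rule as first fixed 94.5% of dd_1070.

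The folds over 0 hpa in muscle-like cells moved but kept their direction. For dd_702 at 6 hpa they were 0.579 with cells under 10% mitochondrial UMIs, 0.578 with cells of at least 1000 UMIs and 0.366 in cells with dd_2337. For dd_1070 at 6 hpa they were 0.514, 0.486 and 0.298 in the same order. The mean of the 16 hpa anterior-facing replicates was 0.254 and 0.285 for dd_702 and 0.291 and 0.301 for dd_1070 under the first 2 of these. At the posterior-facing wound the fold was 0.516 for dd_702 and 0.532 for dd_1070 with cells under 10% mitochondrial UMIs. For dd_1054 in parenchyma-like cells, the folds with cells under 10% mitochondrial UMIs were 1.47 at 6 hpa, 3.47 for the mean of the 16 hpa anterior-facing replicates and 1.58 at the posterior-facing wound. Over all cells they were 3.18, 5.51 and 3.50. The cause of these shifts was not tested. In all, 222 of 253 values kept their call or stayed within the limit set for them, and none reversed. The contrasts of classes and of cells split by dd_2337 were paired within library, which was the block of each test. Conditions could not be paired, because the labels give no replicate numbers that they share. Levels in the muscle-like cells of a library rest on few UMIs for dd_10785 (10 to 47) and for dd_1054 (0 to 29).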
